A study of Mus musculus with 8 samples.

Results

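The genes followed here in whole cortex of mice are 9 that are typical of striatal projection neurons: Drd2, Adora2a, Ppp1r1b, Rgs9, Pde10a, Gpr6, Syndig1l, Six3 and Isl1. They were chosen by name, for how they are used as markers, with earlier results of these data known. These are 9 of the 22000 rows of the count table, and 7 of the 13879 genes with enough reads to be tested are among them. Six3 and Isl1 did not pass that filter on low counts. The 8 libraries come from 4 mice labelled Mef2c heterozygous and 4 labelled wild type, and each genotype has 2 males and 2 females, with 1 library per mouse. Mef2c codes for a transcription factor of neurons and microglia. Strain, age, construction of the allele and manner of dissection were not given in the sources used here. The animal numbers in the sample titles form 2 runs with a gap between them, called the first and the second here, and either run holds 1 mouse per sex and genotype. Heterozygous replicates 1 and 2 and wild type replicates 1 and 2 belong to the first run, and replicates 3 and 4 of each genotype belong to the second. What the runs stand for is not given in the labels.

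The striatum lies directly beneath the cortex and consists mostly of GABAergic projection neurons. These receive dopamine and glutamate and fall into a direct pathway, rich in the D1 dopamine receptor, and an indirect pathway, rich in the D2 dopamine receptor and the A2a adenosine receptor. Their messenger RNAs are far more abundant in striatum than in cortex, although cortical neurons also express some of them, among them Ppp1r1b and Pde10a. In bulk tissue, fewer cells of a type and less RNA per cell cannot be told apart.

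Mef2c itself was higher in the libraries labelled heterozygous, with 1233, 1336, 1391 and 1255 CPM (counts scaled to a common library total), against 1038, 939, 999 and 1003 CPM in wild type libraries. Its log2 fold change was 0.39 ± 0.05 (SE; adjusted p 0.000154, edgeR quasi-likelihood test). The label says heterozygous but not how the allele was altered, and the counts were higher, so genotype below always means the label. Total counts lay between 16092773 and 17841377 and RNA integrity numbers between 8.6 and 9.

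Promoter windows in RefSeq (build GRCm38.p6) were matched for 6 of the 9 genes, with 7 windows. Adora2a, Ppp1r1b and Syndig1l had no matched window. The windows shown are those of Drd2, Rgs9 and Pde10a, and of Gpr6, which had lower correlations to them. Pearson r of log2 CPM over the libraries was 0.62 to 0.83 between Drd2, Rgs9 and Pde10a. None of these pairs passed an exact permutation test after adjustment. Capitals mark matches, on either strand, to the GC box GGGCGG, the E-box CANNTG, the homeodomain core TAATTA, the TATA box TATAAA and the MEF2 site.
Drd2, chr9:49340153-49340452, plus strand: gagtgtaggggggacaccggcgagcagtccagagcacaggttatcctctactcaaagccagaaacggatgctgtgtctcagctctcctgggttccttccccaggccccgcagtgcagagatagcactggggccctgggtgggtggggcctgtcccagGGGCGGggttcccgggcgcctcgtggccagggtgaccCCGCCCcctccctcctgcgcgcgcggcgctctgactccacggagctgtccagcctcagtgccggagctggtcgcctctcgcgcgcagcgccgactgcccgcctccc
Rgs9, chr11:109298132-109298431, minus strand: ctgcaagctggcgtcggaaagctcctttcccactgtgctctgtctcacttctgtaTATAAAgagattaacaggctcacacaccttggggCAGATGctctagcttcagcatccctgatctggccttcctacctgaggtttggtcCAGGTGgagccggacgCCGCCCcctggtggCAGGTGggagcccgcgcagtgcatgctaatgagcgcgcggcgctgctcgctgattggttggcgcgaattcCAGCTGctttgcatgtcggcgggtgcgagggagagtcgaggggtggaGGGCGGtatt
Pde10a, chr17:8801495-8801794, plus strand: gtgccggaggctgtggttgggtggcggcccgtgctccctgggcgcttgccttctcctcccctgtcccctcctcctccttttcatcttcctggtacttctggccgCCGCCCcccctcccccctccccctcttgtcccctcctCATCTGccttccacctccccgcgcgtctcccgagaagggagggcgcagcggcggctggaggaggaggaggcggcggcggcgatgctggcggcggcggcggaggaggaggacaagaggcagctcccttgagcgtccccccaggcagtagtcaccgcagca
Gpr6, chr10:41072241-41072540, minus strand: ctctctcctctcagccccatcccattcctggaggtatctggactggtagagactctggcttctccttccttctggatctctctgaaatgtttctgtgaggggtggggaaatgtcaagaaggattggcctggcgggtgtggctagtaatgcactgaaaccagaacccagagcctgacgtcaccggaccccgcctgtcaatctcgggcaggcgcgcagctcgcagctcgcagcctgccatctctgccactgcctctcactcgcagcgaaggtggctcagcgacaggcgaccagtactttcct
The Drd2 window held 2 GC boxes and was 70.3% G and C. The Rgs9 window held 2 GC boxes, 4 E-boxes and 1 TATA box. The first of the 2 Pde10a windows held 1 GC box and 1 E-box, and the Gpr6 window held none of the 5 motifs. Over 32851 windows of the same length, 35.7% held a GC box, 72.3% an E-box, 5.29% the homeodomain core, 13.6% a TATA box and 3.19% a MEF2 site, and the median G and C content was 52.7%. None of the 7 windows held a MEF2 site or a homeodomain core, which says only that these letters were not in these windows.

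Drd2 (ENSMUSG00000032259.8, chromosome 9, 49340627 to 49408177, plus strand of GRCm38) codes for the D2 dopamine receptor, the receptor that marks indirect-pathway neurons. Its levels were 5.87, 4.99, 1.18 and 1.57 CPM in heterozygous replicates 1 to 4, against 1.22, 2.36, 2.63 and 5.76 CPM in wild type replicates 1 to 4. Heterozygous replicates 1 and 2 and wild type replicate 4 were high, and the other 5 libraries were low, so the genotypes overlapped along their whole range. The highest library was 4.97 times the lowest. This spread was far above counting error, since heterozygous replicate 1 held 99 reads (95% exact Poisson interval 80.5 to 120.5) and heterozygous replicate 3 held 19 (11.4 to 29.7). Such intervals cover counting error only. The means were 3.40 ± 2.37 CPM in heterozygous and 2.99 ± 1.94 CPM in wild type libraries (SD, n = 4 each), with a log2 fold change of 0.20 ± 0.73 (SE; adjusted p 0.997, edgeR).

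Adora2a (ENSMUSG00000020178.6, chromosome 10, 75316877 to 75334784, plus strand) codes for the A2a adenosine receptor, which opposes D2 receptor signalling in the same neurons. Heterozygous replicates 1 to 4 had 5.57, 9.98, 2.92 and 2.52 CPM, against 1.63, 3.57, 3.21 and 4.91 CPM in wild type replicates 1 to 4. The same 2 heterozygous libraries were the highest, wild type replicate 4 came next, and wild type replicate 1 was the lowest. The genotypes overlapped, with means of 5.25 ± 3.43 CPM in heterozygous and 3.33 ± 1.35 CPM in wild type libraries (SD, n = 4 each). The log2 fold change of 0.64 ± 0.55 (SE) did not pass the test (adjusted p 0.949, edgeR).

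Gpr6 (ENSMUSG00000046922.7, chromosome 10, 41069977 to 41072285, minus strand) codes for an orphan receptor of indirect-pathway neurons. Its levels were 2.49, 1.04, 1.80 and 0.896 CPM in heterozygous replicates 1 to 4, against 1.11, 2.13, 1.09 and 1.51 CPM in wild type replicates 1 to 4. Of the 3 libraries high in Drd2, heterozygous replicate 1 was the highest for Gpr6, heterozygous replicate 2 was next to the lowest and wild type replicate 4 lay in the middle. Between 16 and 42 reads per library stood behind these values. The genotypes differed by 0.04 ± 0.34 on the log2 scale (SE), with means of 1.56 ± 0.737 CPM in heterozygous and 1.46 ± 0.489 CPM in wild type libraries (SD, n = 4 each).

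Syndig1l (ENSMUSG00000071234.3, chromosome 12, 84677277 to 84698831, minus strand) codes for a membrane protein related to the synapse protein SynDIG1 and is enriched in caudate and putamen. Heterozygous replicates 1 to 4 had 7.29, 8.12, 4.41 and 3.02 CPM, against 2.79, 3.97, 4.35 and 7.58 CPM in wild type replicates 1 to 4. The 3 high libraries were again heterozygous replicates 1 and 2 and wild type replicate 4. Means were 5.71 ± 2.40 CPM in heterozygous and 4.67 ± 2.05 CPM in wild type libraries (SD, n = 4 each), a log2 fold change of 0.30 ± 0.39 (SE; adjusted p 0.971, edgeR).

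Ppp1r1b, Rgs9 and Pde10a act inside the cell on the signals of these receptors. Ppp1r1b (ENSMUSG00000061718.12, chromosome 11, 98348404 to 98357796, plus strand) codes for DARPP-32, a protein phosphatase inhibitor switched by cAMP-dependent kinase. It had 150, 134, 121 and 103 CPM in heterozygous replicates 1 to 4, against 108, 106, 103 and 118 CPM in wild type replicates 1 to 4. Of the 4 heterozygous libraries 3 lay above every wild type library, and heterozygous replicate 4 was the lowest of all 8. Means were 127 ± 20.0 CPM in heterozygous and 109 ± 6.19 CPM in wild type libraries (SD, n = 4 each). The log2 fold change of 0.22 ± 0.10 (SE) had the smallest p for genotype among the members (adjusted p 0.697, edgeR).

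Rgs9 (ENSMUSG00000020599.13, chromosome 11, 109225355 to 109298129, minus strand) codes for a regulator that shortens G protein signalling downstream of dopamine receptors. Its levels were 15.4, 14.3, 8.08 and 10.9 CPM in heterozygous replicates 1 to 4, against 9.25, 11.5, 10.2 and 11.2 CPM in wild type replicates 1 to 4. The 2 heterozygous libraries of the first run were the highest, heterozygous replicate 3 was the lowest, and all 4 wild type libraries lay between them. Genotype means differed by 0.21 ± 0.17 on the log2 scale (SE; adjusted p 0.936, edgeR).

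Pde10a (ENSMUSG00000023868.17, chromosome 17, 8525372 to 8986648, plus strand) codes for the phosphodiesterase that degrades cAMP and cGMP in striatal projection neurons. Heterozygous replicates 1 to 4 had 105, 103, 68.2 and 69.4 CPM, against 92.6, 72.4, 73.6 and 82.8 CPM in wild type replicates 1 to 4. The heterozygous libraries took both ends of the range, and the wild type libraries lay wholly inside it. The log2 fold change between genotypes was 0.11 ± 0.19 (SE; adjusted p 0.982, edgeR), with means of 86.5 ± 20.5 CPM in heterozygous and 80.4 ± 9.37 CPM in wild type libraries (SD, n = 4 each).

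Six3 and Isl1 code for homeodomain transcription factors that act in the formation of striatal projection neurons, Six3 in indirect-pathway and Isl1 in direct-pathway neurons. Six3 (ENSMUSG00000038805.10, chromosome 17, 85613608 to 85629302, plus strand) had 8, 11, 2 and 5 reads in heterozygous replicates 1 to 4, against 1, 8, 8 and 4 reads in wild type replicates 1 to 4. Isl1 (ENSMUSG00000042258.13, chromosome 13, 116298281 to 116309689, minus strand) had 4, 1, 1 and 0 reads in heterozygous replicates 1 to 4, against 0, 0, 0 and 3 reads in wild type replicates 1 to 4. Both were at the edge of detection, and a library with 0 reads allows up to 3 counts, or 0.168 to 0.186 CPM over the 8 libraries. Neither gene was tested in the fits with the filter.

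**Figure D1:**
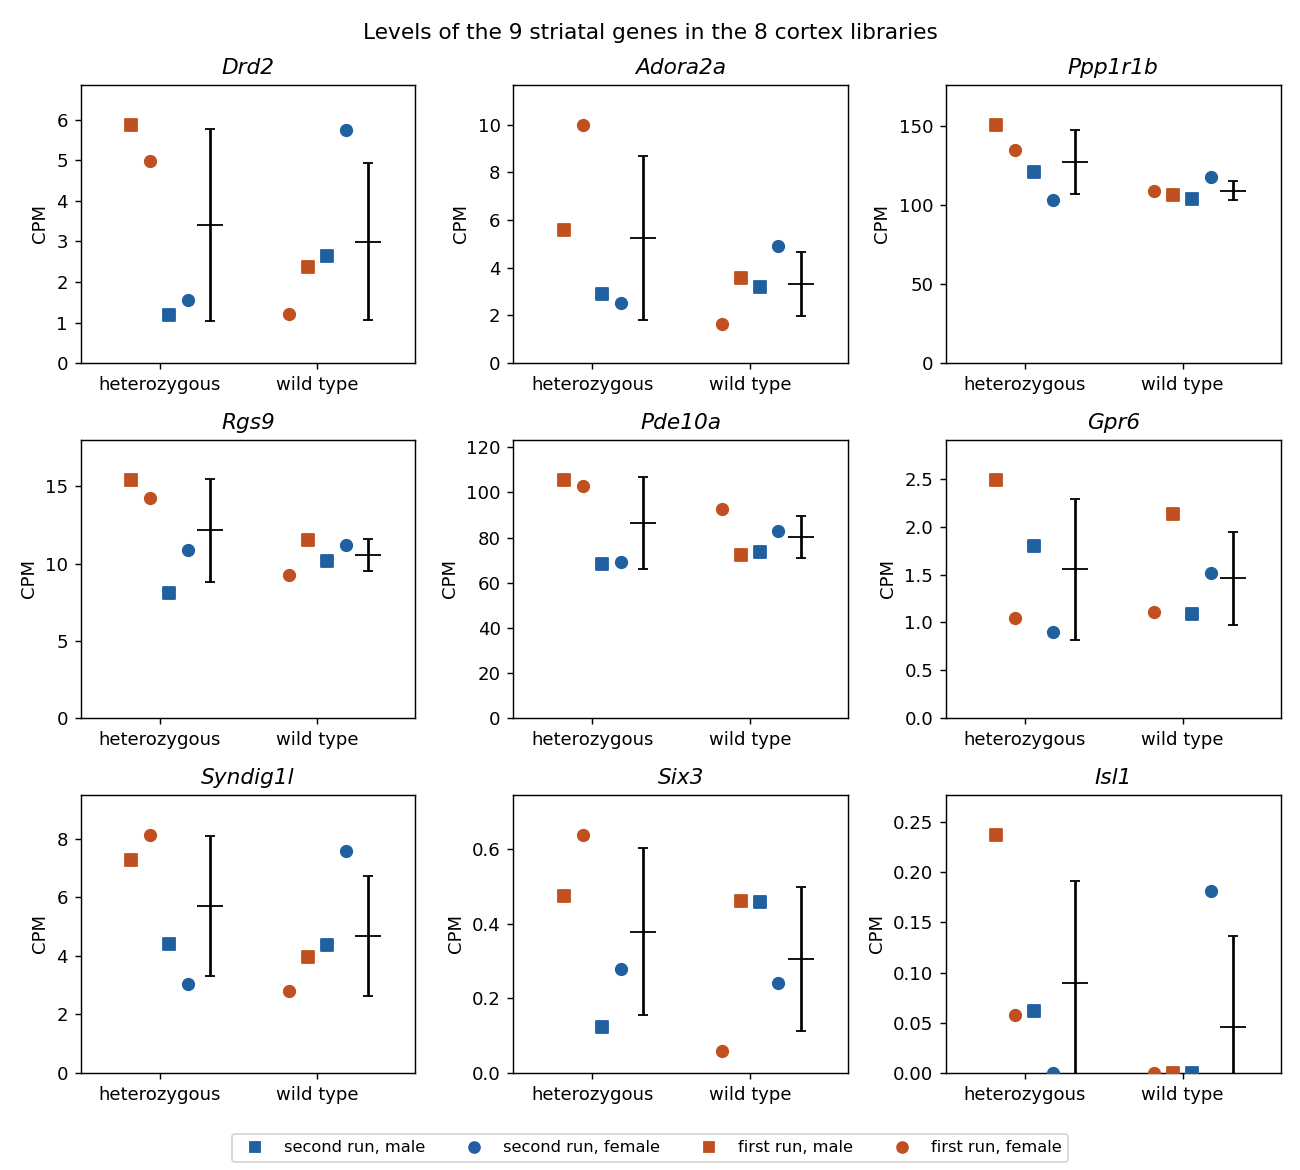
Levels of the 9 genes in each library, in CPM, with heterozygous libraries left of wild type libraries and a panel per gene. Each point is 1 library, with its run of animal numbers by colour and its sex by marker, and the bars give the genotype mean and SD (n = 4). Drd2, Adora2a and Syndig1l show 2 high heterozygous libraries from the first run and 1 high wild type library from the second, and the genotypes overlap in all 9 panels.

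Per kilobase of exon, the mean level over 8 libraries was 40.3 CPM for Ppp1r1b and 6.49 CPM for Pde10a. It was 1.78 for Rgs9, 1.69 for Syndig1l, 1.40 for Adora2a, 1.26 for Drd2 and 0.845 CPM per kilobase for Gpr6. Six3 and Isl1 had 0.0628 and 0.0170 CPM per kilobase. Ppp1r1b and Pde10a each lay above the next gene in every library. From Rgs9 down to Gpr6, the ranges over libraries of neighbouring genes overlapped, as did those of Six3 and Isl1, so their order was not larger than the spread.

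Among the 7 tested members, those that varied most on the log2 scale had fewer CPM than the others. Gpr6, the rarest of the 7, still varied less than Drd2, Adora2a and Syndig1l. The highest library was 6.12 times the lowest for Adora2a, 4.97 times for Drd2, 2.91 times for Syndig1l and 2.78 times for Gpr6. It was 1.91 times for Rgs9, 1.55 times for Pde10a and 1.46 times for Ppp1r1b. The SD of log2 CPM over the 8 libraries was larger than that of 99.9% of tested genes for Drd2, 99.8% for Adora2a and 99.0% for Syndig1l, where counting error adds to the SD of rare genes. Set as absolute differences per kilobase, the order was another: from the lowest to the highest library Ppp1r1b spanned 16.1 CPM per kilobase, Pde10a 2.89, Adora2a 2.73 and Drd2 1.84.

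None of the 7 tested members was called for genotype, with 0 at an unadjusted p under 0.05 (7.24% of all genes), and the DESeq2 Wald test called 0 as well, with 1 unadjusted. Of all 13879 genes, 0.267% were called. All 7 log2 fold changes lay above 0, with a median of 0.21, beside a median of -0.001 over all genes. These sizes rested on single libraries. Without heterozygous replicate 1 the log2 fold change was -0.40 for Drd2, -0.05 for Pde10a, -0.17 for Gpr6, 0.03 for Rgs9, 0.10 for Syndig1l and 0.13 for Ppp1r1b. Without heterozygous replicate 2 it was 0.07 for Adora2a, 0.02 for Syndig1l and -0.09 for Drd2, and without wild type replicate 1 it was -0.08 for Drd2. None was called for sex (male minus female; 0.0288% of all genes), where 2 lay above 0 and 5 below. Gpr6 had the 1 unadjusted p under 0.05 for sex (2.92% of all genes). Males (heterozygous replicates 1 and 3, wild type replicates 2 and 3) had 2.49, 1.80, 2.13 and 1.09 CPM of Gpr6, against 1.04, 0.896, 1.11 and 1.51 CPM in females. The sexes overlapped, with a log2 difference of 0.72 ± 0.34 (SE; adjusted p 1.00, edgeR).

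The second run was set against the first in a fit with sex and genotype as further terms, in which 0.382% of all genes were called. None of the 7 members was called there, and all 7 log2 differences lay below 0, with a median of -0.31 (2 at an unadjusted p under 0.05, beside 10.2% of all genes, and 0 called by DESeq2). Those 2 were Pde10a, at -0.34 ± 0.11 (SE; adjusted p 0.331), and Rgs9, at -0.31 ± 0.15 (SE; adjusted p 0.491, both edgeR). Without wild type replicate 2 Pde10a was called, at -0.46 with an adjusted p of 0.0122 (edgeR), where 39 of about 14000 genes were called. Over all its alternatives the adjusted p of Pde10a ran from 0.0122 to 0.622. Among 7 endothelial cell genes, 2 were called lower in the second run, Pecam1 at -0.53 ± 0.12 and Ly6c1 at -0.40 ± 0.08 (log2, SE; adjusted p 0.0437 and 0.0119, edgeR), and the summed level of that list lay between 159 and 247 CPM in heterozygous and between 163 and 227 CPM in wild type libraries. Its part in the result was not tested.

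The genotype difference of most members had another sign or size in the second run than in the first, although no member passed the test of that difference after adjustment. In the second run Drd2 had 1.18 and 1.57 CPM in heterozygous libraries, against 2.63 and 5.76 CPM in wild type libraries. In the first run it had 5.87 and 4.99 CPM in heterozygous libraries, against 1.22 and 2.36 CPM in wild type libraries. The mean of the heterozygous libraries was 0.327 times that of the wild type libraries in the second run and 3.03 times in the first. The same ratio was 0.670 in the second run and 2.99 in the first for Adora2a, and 0.623 and 2.28 for Syndig1l. For Gpr6 it was 1.04 in the second run and 1.09 in the first.

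The difference between the genotype effects, second run minus first, was tested with an interaction term in edgeR's quasi-likelihood fit. For Drd2 it was -3.17 ± 0.56 on the log2 scale (SE), with a p of 1.03e-05, the second smallest of all 13879 genes, and an adjusted p of 0.0657. Syndig1l had -1.86 ± 0.42 (SE; adjusted p 0.222), Adora2a -2.12 ± 0.53 (0.464) and Pde10a -0.53 ± 0.13 (0.391). Rgs9, at -0.69 ± 0.26 (SE), and Ppp1r1b, at -0.39 ± 0.13, were smaller, with adjusted p of 0.999 and 0.888, and Gpr6 had -0.14 ± 0.68 (0.999). None of the 7 members passed after adjustment, as 0.00721% of all genes did. At an unadjusted p under 0.05 there were 6 of 7 members, all but Gpr6, beside 4.09% of all genes. These 6 were correlated over the same mice, with a median Pearson r of 0.70 over the 15 pairs without Gpr6. They are therefore not 6 separate observations, and their count cannot be read as enrichment over all genes.

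Whether Drd2 passed depended on the setting. The DESeq2 Wald test called Drd2 alone among the members (adjusted p 0.0370) and 0.0288% of all genes, and the edgeR fit without the filter called Drd2 (0.000108), Syndig1l (0.0105) and Adora2a (0.0391), beside 0.0805% of all genes. Over all alternatives the adjusted p of Drd2 ran from 0.000108 to 0.546, that of Syndig1l from 0.0105 to 1 and that of Adora2a from 0.0205 to 1. Those ranges include the fits with 1 library left out, which leave 1 library of a genotype in 1 run. In these fits the interaction ran from -3.94 to -2.39 for Drd2, from -2.99 to -1.39 for Adora2a and from -2.38 to -1.32 for Syndig1l.

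The interaction fit also gave the genotype effect within each run, where 0.108% of all genes were called in the second run and 0.238% in the first. No member was called in either, and 2 in the second run (Drd2 and Syndig1l) and 6 in the first (all but Gpr6) had an unadjusted p under 0.05, beside 5.46% of all genes in the second and 7.36% in the first. The correlated members are not separate observations in these counts either. In the second run Drd2 had a log2 fold change of -1.59 ± 0.41 (SE; adjusted p 0.243), Syndig1l -0.68 ± 0.30 and Adora2a -0.57 ± 0.38. In the first run Drd2 had 1.59 ± 0.39 (SE; adjusted p 0.103), Adora2a 1.55 ± 0.37 (0.108), Syndig1l 1.18 ± 0.29 (0.108) and Ppp1r1b 0.41 ± 0.09 (0.0518, all edgeR). In the second run 1 member lay above 0 and 6 below, with a median of -0.18, and in the first all 7 lay above 0, with a median of 0.51. A fit on the first run alone had 2 libraries of each genotype and, unlike the interaction fit, no sex term. It called 3 members, beside 0.229% of all genes: Drd2 at 1.60 (adjusted p 0.0225), Ppp1r1b at 0.41 (0.0240) and Syndig1l at 1.19 (0.0340, all edgeR). On the second run alone, fitted the same way, 0.323% of all genes and 0 members were called. There 3 members had an unadjusted p under 0.05 (Drd2, Pde10a and Syndig1l). Drd2 had -1.60 there, with an adjusted p of 0.0808 (edgeR).

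**Figure D2:**
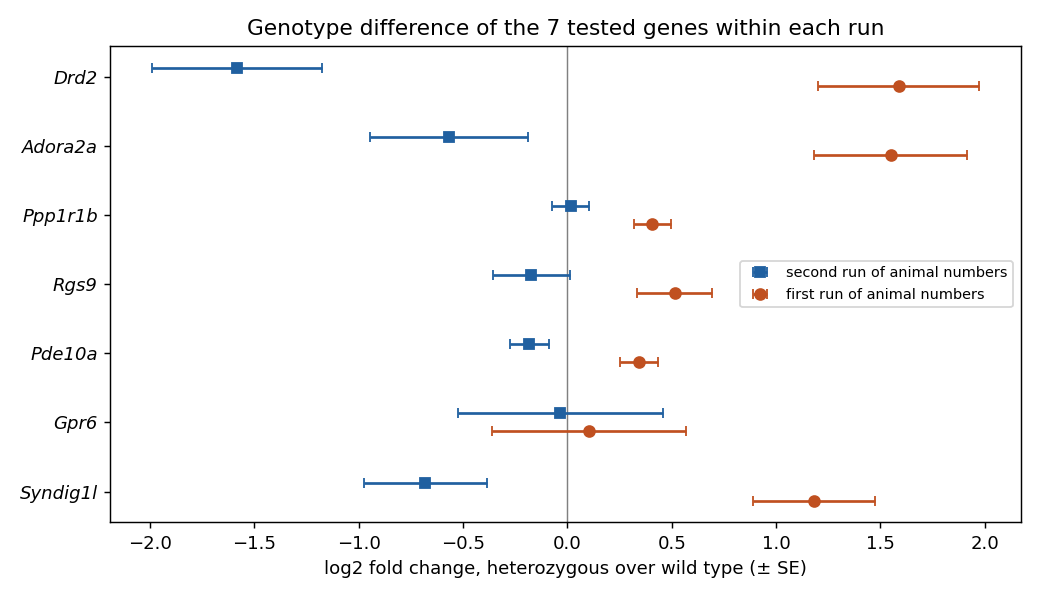
Log2 fold change (heterozygous minus wild type) of the tested genes within the second and the first run of animal numbers, from the interaction fit, with bars of 1 SE. In the first run the points run from 0.10 for Gpr6 to 1.59 for Drd2, and in the second run Drd2 stands at -1.59, the farthest below 0.

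Counted by library, both heterozygous libraries lay below both wild type libraries in the second run for 3 of the 7 members, Drd2, Adora2a and Pde10a, and that held for 19% of all genes. Both lay above in the first run for 6 of 7, all but Gpr6, and for 16.3% of all genes. The 3 genes of the second run also had the pattern of the first, as 2.31% of all genes did. Since the members were correlated over the same mice, these counts are not of separate observations.

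Over the 8 libraries the members tended to be high in the same mice. Of the 21 pairs of tested members, all had a Pearson r above 0 for log2 CPM, with a median of 0.65 and a range from 0.12 to 0.92 (median Spearman rho 0.57). Only 1 pair passed a two-sided exact permutation test after adjustment over the 21 pairs: Adora2a and Syndig1l, with r = 0.92 (p 0.000298, adjusted p 0.00625) and rho = 0.88 (adjusted p 0.0807). No pair passed with Spearman's rho. Drd2 had r = 0.91 with Syndig1l (exact permutation, adjusted p 0.0514), 0.84 with Adora2a (0.0514) and 0.83 with Rgs9 (0.0521).

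The 6 pairs that hold Gpr6 had r between 0.12 and 0.50, with a median of 0.27, and the 15 other pairs had r between 0.55 and 0.92, with a median of 0.70. Against the mean of the other 6 tested members, r was 0.92 for Syndig1l, 0.89 for Drd2, 0.85 for Adora2a, 0.81 for Rgs9, 0.80 for Ppp1r1b, 0.64 for Pde10a and 0.30 for Gpr6. Without the 2 libraries farthest from the median of the first gene of a pair, the median r was 0.53, the range ran from -0.50 (Ppp1r1b with Rgs9) to 0.94 (Adora2a with Syndig1l), and 17 of 21 were above 0. Ppp1r1b with Pde10a fell from 0.75 to 0.07 and Pde10a with Syndig1l from 0.57 to -0.005. Which libraries are left out depends on the gene named first, so the pairs do not all lose the same libraries. Each run holds 4 libraries, too few for a correlation within it. With the means of the runs removed, the median r was 0.67, and with those of genotype and sex removed it was 0.66. Neither step removes a genotype difference that changes between the runs. These 2 values therefore cannot show whether the members vary together apart from it.

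**Figure D3:**
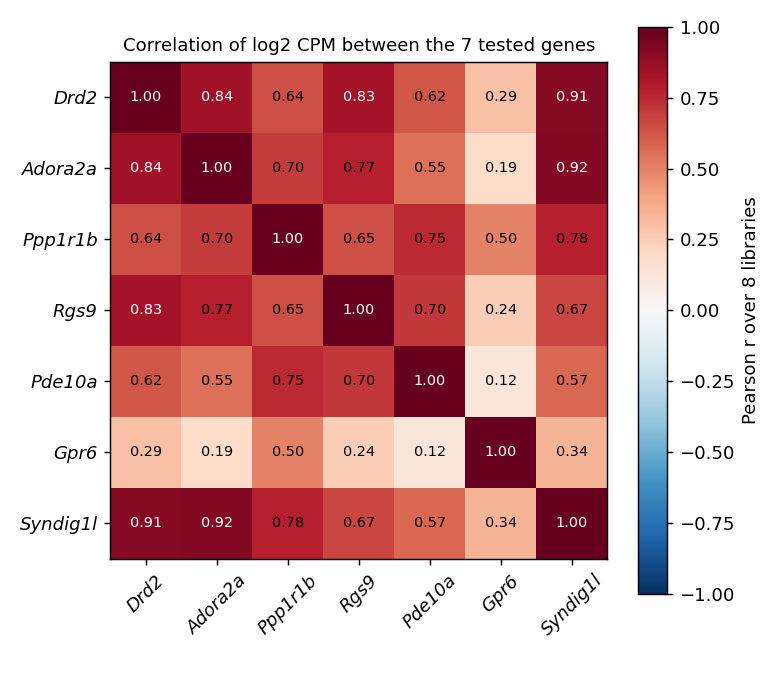
Pearson r of log2 CPM over 8 libraries for each pair of tested genes, as numbers and shading from -1 to 1. The pairs among Drd2, Adora2a and Syndig1l stand between 0.84 and 0.92, and the row of Gpr6 stands between 0.12 and 0.50.

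Averaged over the 7 tested members after centring each gene, the libraries stood at 0.54, 0.47, -0.26 and -0.38 (log2 CPM) in heterozygous replicates 1 to 4, against -0.44, -0.05, -0.16 and 0.28 in wild type replicates 1 to 4. Heterozygous replicate 1 and wild type replicate 4 were above the gene's median for all 7 members, heterozygous replicate 2 for 6, and heterozygous replicate 4 for 0. The summed level of the 9 members was 293, 277, 208 and 192 CPM in heterozygous replicates 1 to 4, against 217, 203, 199 and 232 CPM in wild type replicates 1 to 4. Ppp1r1b and Pde10a made up most of this sum, with 150 and 105 CPM in heterozygous replicate 1. Drd2, Adora2a and Syndig1l together had 18.7, 23.1, 8.5 and 7.1 CPM in heterozygous replicates 1 to 4, against 5.6, 9.9, 10.2 and 18.2 CPM in wild type replicates 1 to 4. The 3 high libraries were of both genotypes, both sexes and both runs. Their RNA integrity numbers were 8.9 and 8.6 for heterozygous replicates 1 and 2 and 8.9 for wild type replicate 4, inside the range of the other 5 libraries. How much striatal tissue came with the cortex of each mouse was not measured, and its part in these levels was not tested.

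Other genes of the striatum were read the same way, by their r with this mean of the members over 8 libraries. Among all 13872 other tested genes, 1.20% reached an r of 0.8, and the median r was -0.01. These values have no p, and all genes of a library share its depth and tissue piece.

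Of 3 further indirect-pathway genes, Penk, which codes for the enkephalin precursor, reached 0.85, and the median was 0.71. Penk had 65.3, 80.4, 59.5 and 49.2 CPM in heterozygous replicates 1 to 4, against 42.7, 59.9, 47.3 and 65.0 CPM in wild type replicates 1 to 4. Its highest library was the one highest in Adora2a, and wild type replicate 1 was the lowest for both.

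Genes of the direct pathway were read beside them, since most members mark the indirect pathway or both. Of 6 tested genes, 2 reached 0.8, Pdyn (0.92), the dynorphin precursor, and Slc35d3 (0.88), and the median was 0.58. Ebf1 had an r of 0.63, Tac1 0.53, Eya1 0.42 and Chrm4 0.097. Pdyn had 37.7, 33.0, 28.3 and 25.3 CPM in heterozygous replicates 1 to 4, against 24.5, 32.4, 30.5 and 34.2 CPM in wild type replicates 1 to 4. The heterozygous libraries of the first run and wild type replicate 4 were among the 4 highest for Pdyn too. Its interaction was -0.59 ± 0.18 (SE; adjusted p 0.875, edgeR), with the sign seen in all 7 members. The D1 receptor gene was not analysed here.

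Among 21 other genes shared by both projection neuron types the median r was 0.56, and 4 reached 0.8: Adcy5 (0.92), the adenylyl cyclase of striatal neurons, Lrrc10b (0.92), Gnal (0.84), which codes for the G protein that couples their D1 and A2a receptors to it, and Pde1b (0.82). Others lay below 0, with Ptpn5 at -0.44 and Arpp21 at -0.40. Adcy5 had 177, 184, 151 and 156 CPM in heterozygous replicates 1 to 4, against 146, 150, 155 and 172 CPM in wild type replicates 1 to 4. None of the 21 was called for genotype or for the interaction, and 16 of the 21 interactions lay below 0, with a median of -0.24. Their signs come from the same mice and are not 21 separate observations. Within the first run 1 was called, Rasd2, with a log2 fold change of 0.38 ± 0.08 (SE; adjusted p 0.0328, edgeR), against 0 called in the second run.

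Of the genes of the shared signalling pathway, which run from dopamine and adenosine receptors through G proteins, cyclases and phosphodiesterases to kinases and phosphatases, 39 were tested and 0 were called for genotype, run, interaction or sex. Their median r was -0.15, and 3 reached 0.8 (Adcy5, Gnal and Pde1b, which are also on the list before). Gnao1 (0.51) and Gnas (0.38), which code for G proteins used in most neurons, and Adora1 (-0.24), the A1 adenosine receptor of cortex, were lower. Drd3, which codes for the D3 dopamine receptor, had 0 reads in all 8 libraries.

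Genes of the striatum's cholinergic interneurons were close to the limit of detection. Of 6 of their genes, 1 (Slc5a7, the choline transporter) was tested, with an r of 0.23. Chat had 57 reads in all 8 libraries together, and the transcription factor genes Lhx8 and Gbx2 had 2 reads and 1. The 7 tested transcription factor genes of the developing ventral forebrain had a median r of -0.32.

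**Figure D4:**
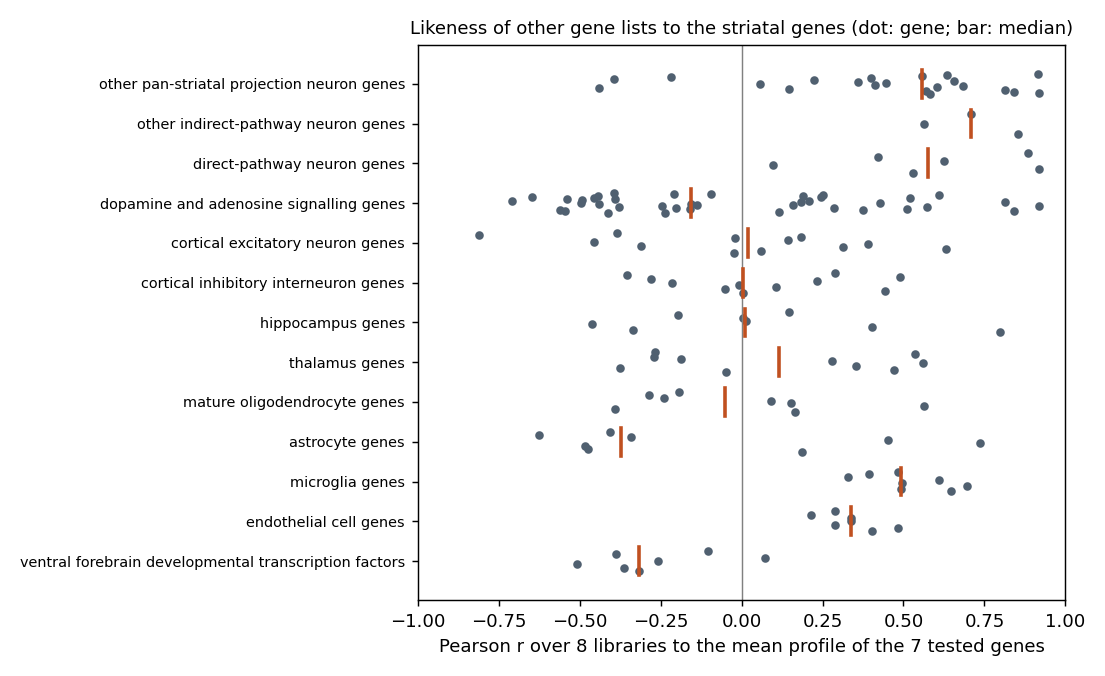
Pearson r over 8 libraries between single genes and the mean centred log2 CPM of the 7 tested genes, by gene list, with a point per gene and the list's median as a line. The medians of the striatal projection neuron lists lie between 0.56 and 0.71 and that of cortical excitatory neuron genes at 0.02.

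Genes of cortical cells had list medians near 0, with a wide spread between genes. The 12 tested genes of cortical excitatory neurons had a median r of 0.02 and a range from -0.81 (Fezf2, a transcription factor of deep-layer neurons) to 0.63 (Neurod2), and 0 were called for genotype, run or interaction. Their summed level lay between 7757 and 8265 CPM in heterozygous and between 7376 and 8134 CPM in wild type libraries. Slc17a7, the vesicular glutamate transporter of these neurons, had an r of -0.02, and Camk2a had 0.14. The 11 tested genes of cortical inhibitory interneurons had a median r of 0.01, from -0.35 (Lamp5) to 0.49 (Adarb2), and summed levels of 1432 to 1526 CPM in heterozygous and 1385 to 1523 CPM in wild type libraries, and Sst was called higher in the second run (log2 difference 0.22 ± 0.05, SE; adjusted p 0.0391, edgeR).

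Genes of other tissue near the cortex were set beside them. The median r was 0.01 for 8 hippocampal genes, 0.12 for 10 thalamic genes, -0.27 for 5 olfactory bulb genes and -0.10 for 3 choroid plexus genes. The summed level of the olfactory bulb list was 39.0 CPM in heterozygous replicate 3 and lay between 22.5 and 28.4 CPM in the other 7 libraries, and heterozygous replicate 3 was low in the members. Ramp3 of the thalamic list was called lower in heterozygous libraries (log2 fold change -0.71 ± 0.14, SE; adjusted p 0.0190, edgeR), with an r of -0.19 to the members.

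Among glia, blood and vessels the median r was -0.05 for mature oligodendrocytes, -0.37 for astrocytes, 0.34 for endothelium, 0.39 for red blood cells and 0.49 for microglia. Of 8 tested microglial genes 3 were called higher in heterozygous libraries, C1qb (log2 fold change 0.45 ± 0.07, SE; adjusted p 0.00294, edgeR), C1qc and Ctss, beside the 0.267% of all genes called in either direction. The other 5 did not pass, with P2ry12 at -0.06, and the summed level of the list lay between 394 and 445 CPM in heterozygous and between 348 and 377 CPM in wild type libraries. None of the 8 reached an r of 0.8. The part of microglia in the levels of the members was not tested.

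**Figure D5:**
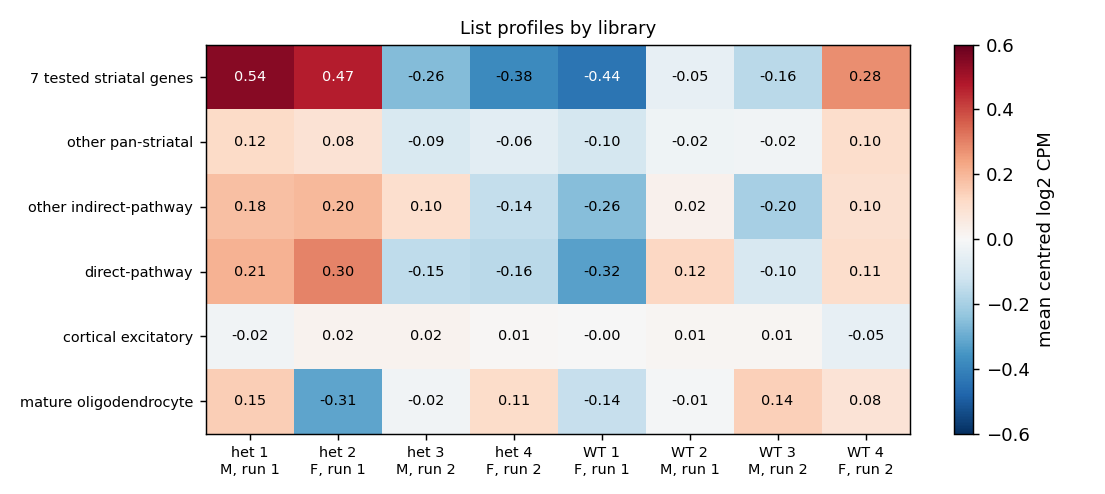
Mean centred log2 CPM of each gene list in each library, heterozygous libraries left of wild type libraries, with the value in each cell. The row of the members runs from -0.44 in wild type replicate 1 to 0.54 in heterozygous replicate 1, and that of cortical excitatory neuron genes from -0.05 to 0.02.

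The 9 genes most like the mean of the members over the 8 libraries had r between 0.92 and 0.97, and none was on a list used here. They were Slc16a10, Sbno1, Zbtb21, Lamb1, Cpsf1, Pcca, Dzip1, Xdh and Fras1. Slc16a10, which codes for an aromatic amino acid transporter, had 5.04, 4.70, 3.17 and 2.74 CPM in heterozygous replicates 1 to 4, against 2.62, 3.86, 3.38 and 4.00 CPM in wild type replicates 1 to 4. The highest library was 2.85 times the lowest for Xdh and 1.08 times for Cpsf1, beside 4.97 times for Drd2.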

How the data were processed

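Polyadenylated RNA of whole cortex was sequenced from 8 mice. The authors deposited raw counts per gene symbol, made with STAR 2.5.2b and HTSeq on build mm10, per the submitters' processing notes. Annotation and strand setting were not given in the sources used here, so sense and antisense reads cannot be told apart. Symbols were matched to GENCODE mouse release M21 (GRCm38) for identifiers, coordinates and exon lengths.

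From the counts, genes were kept with filterByExpr by genotype (minimum count 10), which left 13879 of 22000 rows and 99.95% of the reads, and were scaled by TMM. Tests were edgeR 4.0.16 quasi-likelihood F-tests (R 4.3.3, robust) over all kept genes, Benjamini-Hochberg adjusted, called under 0.05. Genotype and sex were the terms, run of animal numbers was added as a term, and its interaction with genotype gave the difference between runs. DESeq2 1.42.0 was an alternative. CPM were put on a log2 scale with a pseudocount of 0.5 CPM for correlations, whose exact permutation p came from all 40320 orders of the 8 libraries. Replicate numbers follow accession order and pair nothing. Each library was its own mouse, per the labels. No pair of libraries of the same genotype agreed within sampling noise (lowest chi-square per degree of freedom 4.04). Pairs across genotypes were not checked.

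The members and the 17 other lists were chosen with earlier results of these data known. Named genes are the members, Mef2c, up to 4 called genes of a list by smallest p or otherwise its 2 most abundant, and the 10 genes most like the members among those at or above a mean log2 CPM of 1, of which 1 is not reported here. Genes of a list that reached an r of 0.8, and those named for a low r or few reads, were chosen after their values were seen.

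Other alternatives were DESeq2 size factors, upper-quartile scaling, no filter, 1 CPM in 4 libraries, other covariates, each run alone without the sex term, each library left out, and other pseudocounts. The pipeline was tested on simulated data.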

Additional observations from a re-analysis of the deposited data

Results flagged for a closer look

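Of all tested genes, 1 had a genotype effect that differed between the runs of animal numbers after adjustment, Tmem167, with an interaction of -1.05 (second run minus first, log2; adjusted p 0.00217 in edgeR's quasi-likelihood test). It is no striatal gene of the lists. It had 26.3 and 24.9 CPM in the heterozygous libraries of the second run, against 51.2 and 53.8 CPM in wild type libraries, and 51.5 and 56.7 CPM in the heterozygous libraries of the first run, against 50.7 and 56.6 CPM in wild type libraries.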

How the results depend on the processing

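The count of genes called for genotype was 37, against 82 with no filter on low counts, 80 with the DESeq2 Wald test and 72 with sex and run as terms, and 19 to 80 with each library left out. For the run it was 53, against 95 with no filter, and 11 to 77 with each library left out. For the interaction it was 1, against 14 with no filter and 4 with DESeq2, and 0 to 7 with each library left out. For sex it was 4, against 2 to 6. No filter also tests the rarest genes. The cause of the other shifts was not tested. In the second run alone the genotype effect was of the other sign for Drd2 (-1.60), Adora2a (-0.58), Rgs9 (-0.17), Pde10a (-0.18) and Syndig1l (-0.68). With each library left out, the genotype effect ran from -0.40 to 0.82 for Drd2, from 0.068 to 0.90 for Adora2a, from 0.024 to 0.68 for Syndig1l, from 0.025 to 0.38 for Rgs9, from 0.13 to 0.32 for Ppp1r1b, from -0.054 to 0.24 for Pde10a and from -0.23 to 0.21 for Gpr6. The run difference ran from -1.04 to 0.14 for Drd2, from -0.96 to 0.023 for Adora2a and from -0.59 to 0.21 for Syndig1l, and the interaction of Gpr6 from -0.89 to 0.65. The interactions of the other 6 members stayed below 0 under every alternative run. The median r between members lay between 0.49 (without heterozygous replicate 1) and 0.75 (without wild type replicate 1). The alternative with run means removed was chosen after seeing the data. The labels name no pairs of mice, and no paired analysis was run. Sex and run are balanced over the genotypes, and with both as terms 0 members were called for genotype. Depth limits Six3 and Isl1, with at most 11 reads in a library.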
